A study of Homo sapiens with 11 samples.

Results

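The baseline transcriptome of 786-0 cells was described from 6 control libraries, chosen by their treatment label from the 11 samples of the series. 786-0 is an established human cell line from a renal cell carcinoma, grown here in DMEM and kept for 4 h with the solvent DMSO alone. Everolimus-treated cells made up the other 5 samples, which are not used here. RNA came from a Qiagen RNeasy extraction and libraries from the TruSeq stranded mRNA kit of Illumina, and the labels do not say whether the 6 libraries came from separate cultures. A single cultured line stands for 1 tumour cell population without the other cells of a kidney.

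In most clear cell renal carcinomas, and in 786-0 cells, the tumour suppressor VHL is not functional. VHL is the part of a ubiquitin ligase that recognises hypoxia-inducible factor (HIF) alpha subunits after prolyl hydroxylases have marked them, and without it HIF stays active in normal oxygen. HIF drives genes of glucose uptake, glycolysis, blood vessel growth and pH control, and 786-0 is known as a line that depends on HIF-2 alpha, encoded by EPAS1.

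The deposited table has 20500 entries with scaled read estimates, called units here, in which the upper quartile of the values above 0 stands at about 1000 in each library. The libraries held 14230653 to 36828261 estimated reads, 152617141 in all, and 1 read was worth 0.418 to 1.05 units. A count of 3 reads, taken as the floor, corresponded to 1.25 to 3.15 units, which covers counting error only. Levels of different genes were compared after division by transcript length, as parts per 1000000 of the summed length-corrected signal (ppm), and an order by units, where given, is one of shares of the reads. The libraries fell into a first set (controls 1 to 3) and a second set (controls 4 to 6) by the share of low values that were whole reads, 89.4% to 90.0% against 93.3% to 93.9%. The labels name no batch. Controls 2 and 5 also stood apart from the others of their set, as described with the spread below.

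Of the 20500 entries, 12236 (59.7%) reached at least 10 units in all 6 libraries and are called detected. Among these, 3470 (16.9% of all entries) reached at least 1000 units in all 6. A further 3997 entries (19.5%) were listed at 0 in every library, 3543 (17.3%) stayed under 10 units with some signal, and 724 (3.53%) crossed 10 units in some libraries only. With at most 3 estimated reads in every library as the limit, 5925 entries (28.9%) counted as silent. Leaving out any 1 library gave 12245 to 12277 detected entries.

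The marker genes expected of the line were all well above these limits. PAX8, a transcription factor of the kidney lineage, had a lowest value of 3055, a median of 3199 and a highest value of 3285 units (mean 3189 ± 78.7, SD, n = 6). MET, the receptor for hepatocyte growth factor, lay between 10197 and 11718 units with a median of 10592. VIM, the intermediate filament protein vimentin, lay between 66851 and 78073 units around a median of 73908. CD24, a surface glycoprotein, varied more, from 25230 to 36885 units with a median of 31112, and was lowest in controls 2 and 5. Because processed copies of CD24 lie elsewhere in the genome, its share of reads is uncertain. None of these 4 genes went against the label of a renal carcinoma line.

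Markers of cells that a pure culture should lack were low. Of 27 such genes in the table, 14 (51.9%, against 19.5% of all entries) were listed at 0 in all 6 libraries, among them PTPRC of leukocytes, PECAM1, CDH5 and VWF of endothelium, the globin genes HBA1, HBA2 and HBB, and the fibroblast collagens COL1A2 and COL3A1. The whole list summed to 559 to 671 units per library. CD68, a lysosomal protein of macrophages that other cells also make, gave 385 ± 37.3 units of that sum, and ACTA2, COL1A1, PDGFRB and SYP were the other detected members, at means of 79.0, 75.5, 36.6 and 18.7 units. In bulk RNA, few cells with much of a transcript and many cells with little of it cannot be told apart.

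**Figure D1:**
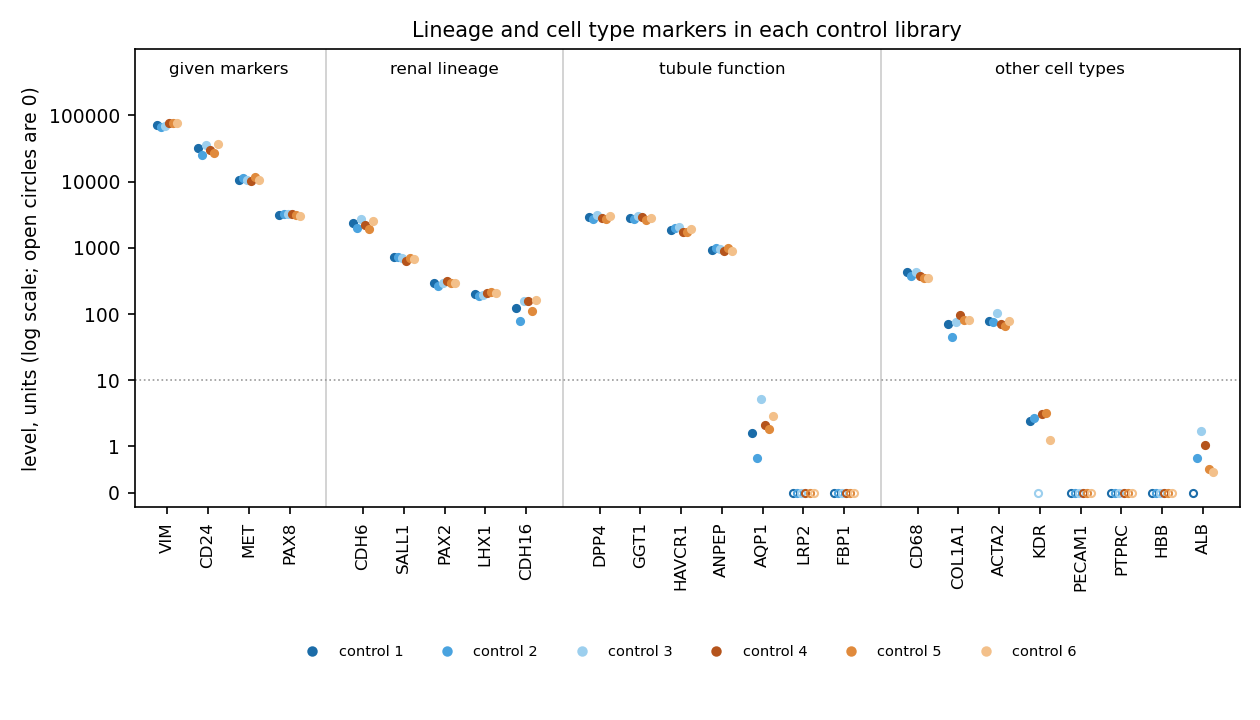
Level in units on a log scale (vertical axis) of the 4 given markers, renal lineage genes, tubule function genes and markers of other cell types, with 1 point per control library and open circles for values of 0. VIM, CD24, MET and PAX8 lie at or above 3055 units in all 6 libraries, while LRP2, FBP1, PECAM1, PTPRC and HBB are at 0 in all 6.

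The transcripts with the largest shares of the reads were those of matrix, cytoskeleton, glycolysis and protein synthesis. FN1, the matrix protein fibronectin, took the largest share of the units, 0.682%, with a lowest value of 97942, a median of 102504 and a highest value of 111263 units. By share of the reads it was followed by the actins ACTB (82640 ± 4457) and ACTG1 (63563 ± 3671), VIM, the glycolytic genes GAPDH (69201 ± 1226) and PKM2 (58952 ± 1436), the elongation factor EEF1A1, the tubulins TUBA1B and TUBB, and the enolase ENO1. The 20 leading entries also held TGFBI, a secreted protein induced by transforming growth factor beta (41378 ± 1070 units), and the large structural proteins FLNA, AHNAK and MYH9. Long transcripts collect more reads, and 8 of the 20 leading entries remained among the 20 highest per length.

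TMSB10, an actin-binding thymosin, stood at 8643 ± 634 ppm, GAPDH at 7555 ± 128, ACTB at 6717 ± 465 and VIM at 5776 ± 361. The iron storage subunit FTL (4622 ppm), the actin-severing cofilin CFL1 (3532 ppm), the galectin LGALS1 (3500 ppm), the aldose reductase AKR1B1 (3254 ppm) and B2M, the light chain of class I antigen-presenting molecules (2845 ppm), were among the 20 highest. FN1 fell to 1885 ppm on this scale. Neighbours in this order often overlapped, as the single libraries of ACTB and VIM did, whereas GAPDH lay above VIM in every library. The first and sixth entries, TMSL3 at 19390 ppm and LUZP6 at 5724 ppm, are uncertain: TMSL3 is a near copy of thymosin beta 4 and LUZP6 overlaps MTPN.

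A small part of the genes carried much of the RNA. The 10 highest entries held 4.27% of the units, the 100 highest 16.0% and the 1000 highest 48.8%. Corrected for length, the same ranks held 7.34%, 24.1% and 59.4%, and 50% of the signal came from 603 entries, against 1060 by units. The uncertain entries TMSL3 and LUZP6 are counted in these length-corrected shares, TMSL3 alone with 1.94%. The share of the 100 highest moved only between 15.8% and 16.2% across the 6 libraries.

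**Figure D2:**
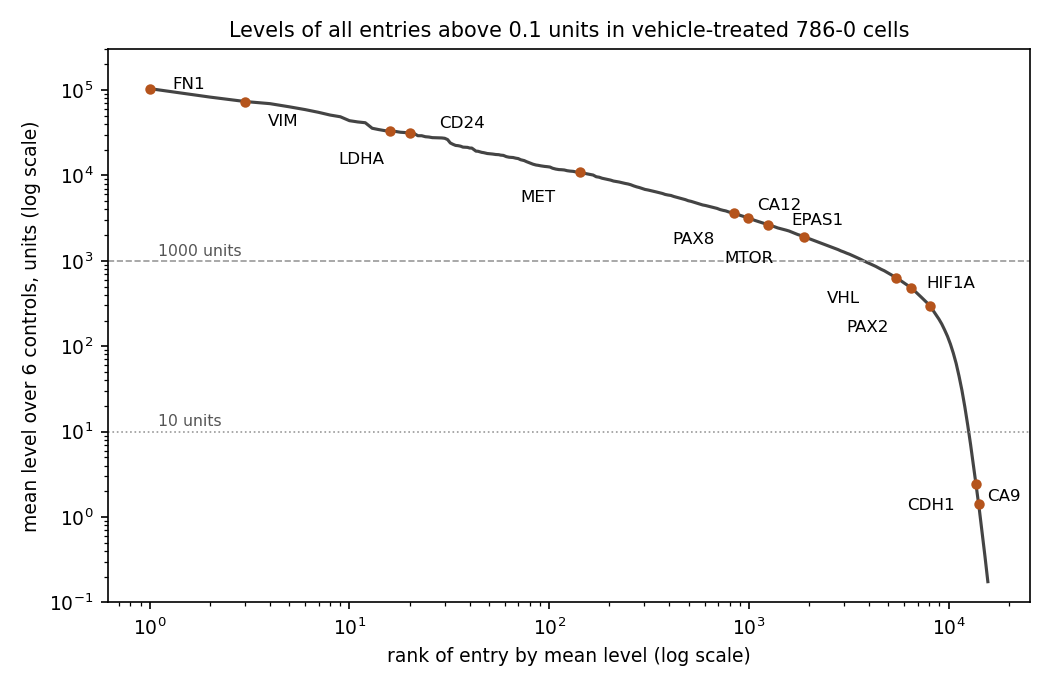
Mean level over the 6 control libraries in units (vertical axis) against the rank of the entry (horizontal axis), both on log scales, with selected genes marked and lines at 10 and 1000 units. Levels fall slowly from FN1 at 103772 units through CD24, MET and PAX8, and drop steeply once below about 100 units, where CDH1 (2.44) and CA9 (1.41) lie.

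Genes of the translation machinery were nearly all detected. Of 79 cytosolic ribosomal protein genes, 77 were detected and 70 reached 1000 units in every library, against 59.7% and 16.9% of all entries. Together the 79 genes held 3.38% of the units and 8.45% of the length-corrected signal. RPL19 (2936 ppm), RPL30 (2805), RPL8 (2798) and RPL35 (2771) were the highest per length. RPS28 was at 62.6, 38.5 and 54.5 units in the first library set and at 0 in all 3 libraries of the second. Since every cell uses this gene, a value of 0 in the table is reported only as listed, here and elsewhere. The elongation factor EEF2 stood at 1557 ppm, and EEF1A1 at 2338 ± 446 ppm, 4.30 ± 1.11 times the level of its relative EEF1A2, a form typical of muscle and neurons. The ratio of EEF1A1 to EEF1A2 depends on the length used, and was 7.36 by units and 7.37 per coding length.

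Transcripts of ribosomal proteins and elongation factors are known to begin with a C followed by a run of pyrimidines, a feature through which mTOR controls their translation. The sequences below show that start in translation genes and its lack in other abundant genes, as 25 bases before and 25 bases from the annotated start (RefSeq, GRCh38.p14). Capitals mark the run of C and T that opens with a C at the start, and ACTG1 shows a run too short to count.
EEF1A1: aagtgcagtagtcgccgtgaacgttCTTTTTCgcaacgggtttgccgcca
EEF2: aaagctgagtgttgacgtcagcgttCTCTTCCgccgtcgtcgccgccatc
RPLP1: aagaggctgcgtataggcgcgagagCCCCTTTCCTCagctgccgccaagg
ACTG1: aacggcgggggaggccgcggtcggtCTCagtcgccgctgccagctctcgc
VIM: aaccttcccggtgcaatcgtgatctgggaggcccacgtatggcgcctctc
FN1: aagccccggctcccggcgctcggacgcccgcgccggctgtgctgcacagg
The windows lie at chr6:73521008-73521057 (minus strand) for EEF1A1, chr19:3985439-3985488 (minus) for EEF2, chr15:69452793-69452842 (plus) for RPLP1, chr17:81512775-81512824 (minus) for ACTG1, chr10:17228216-17228265 (plus) for VIM and chr2:215436044-215436093 (minus) for FN1. A C followed by at least 4 pyrimidines opened 43 of the 63 ribosomal protein genes with a promoter in the table (68.3%). The same start was found in 28 of the 100 entries with the highest ppm and a promoter, in 7.41% of those at or above 1000 units and in 4.69% of all 15097 matched entries. Ribosomal protein genes are themselves among the entries with the highest ppm, so these counts can share genes. An annotated start can differ from the start used in these cells.

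Among 23 transcription factors and cadherins of the renal lineage, 14 (60.9%, near the 59.7% of all entries) were detected. Of the 23, 3 reached 1000 units in every library, a share near the 16.9% of all entries. Besides PAX8 these included CDH6, a cadherin of the early and injured proximal tubule (1913, 2287 and 2733 units as lowest, median and highest). PAX8 stood 10.8 ± 0.631 times as high per length as its relative PAX2. SALL1, WT1 and LHX1, all genes of the embryonic kidney, were at 698 ± 36.2, 239 ± 16.7 and 202 ± 10.2 units. HNF4A, a master factor of the mature proximal tubule, reached 1.16 units in 1 library and 0 in the median. The nephron progenitor factors SIX2, EYA1 and EMX2 were listed at 0 in all 6.

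Functional genes of the mature proximal tubule were detected in 7 of 23 cases (30.4%, against 59.7% of all entries), and 8 (34.8%, against 19.5%) were listed at 0 in every library. With a limit of 1 unit 12 counted as detected. The brush border peptidases DPP4 (2882 ± 186 units), GGT1 (2818 ± 137) and ANPEP (944 ± 47.6) were present, as was HAVCR1, a marker of tubule injury (1899 ± 132). The endocytic receptor LRP2, the anion transporters SLC22A6 and SLC22A8, the glucose transporter SLC5A1 and the gluconeogenic genes FBP1, PCK1 and G6PC were all listed at 0. The water channel AQP1 stood between 0.676 and 5.22 units. Of 17 genes of other nephron segments, PODXL (494 ± 29.2 units) and SCNN1A (116 ± 18.8) were detected, and 8 were at 0, including UMOD, AQP2 and NPHS1.

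The cells combined mesenchymal filaments and cadherins with simple keratins. CDH2, N-cadherin, lay between 4297 and 5148 units with a median of 4539, while CDH1, E-cadherin, lay between 1.61 and 3.48. Per length CDH2 was 2431 ± 657 times as high as CDH1, a ratio whose lower term rests on a few reads per library. The keratins KRT8 (7493 ± 576 units), KRT18 (1919 ± 141) and KRT19 (1368 ± 121), of simple epithelia, were detected, and KRT7 (3.43 ± 1.63) was not. SNAI1, SNAI2, ZEB1 and ZEB2, repressors of E-cadherin, stood at 529, 419, 412 and 600 units in the mean. TWIST1 and TWIST2, further repressors of this kind, were listed at 0 in all 6 libraries. The epithelial splicing factor ESRP1 (2.01 ± 1.52 units) and the epithelial factor GRHL2 (0.209 ± 0.326) were near 0, and ELF3, an epithelial transcription factor, was at 1917 to 2772 units.

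Of 43 genes of matrix, integrins and proteases, 37 (86.0%) were detected and 26 reached 1000 units in every library, against 59.7% and 16.9% of all entries, together 2.04% of all units. Per length TGFBI and FN1 led, with SPP1, osteopontin (1223 ± 139 ppm), ITGB1, the common beta integrin chain (1120 ± 54.1), ITGA3, a laminin receptor chain (609.6 to 716 over the libraries), and SPARC, a matrix glycoprotein (445 ± 4.21), next. The basement membrane chains COL4A1 and COL4A2 stood at 192 and 204 ppm and the laminin chains LAMB1 and LAMC1 at 188 and 149 ppm. The fibrillar collagen gene COL1A1 was at 1.65 ppm. TIMP1 and TIMP2, inhibitors of matrix proteases, overlapped per length (204 ± 5.26 and 208 ± 4.77 ppm), and TIMP3 was listed at 0. That overlap depends on the length used: TIMP1 was 0.239 times TIMP2 by units and 0.254 times per coding length.

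All parts of the VHL ligase were present as RNA. VHL itself had a lowest value of 595, a median of 631 and a highest value of 682 units, with every library within 10% of the mean. Its partners were at 1668 ± 91.6 units for TCEB1 and 1114 ± 88.0 for TCEB2 (elongins C and B), 1496 ± 69.8 for the scaffold CUL2 and 1080 ± 65.9 for RBX1. RNA levels do not show whether a protein works, and the table holds no sequence of VHL.

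EPAS1 was the leading HIF alpha subunit. It stood between 2527 and 2759 units with a median of 2662, and HIF1A between 459 and 522 with a median of 476. Per length the ratio of EPAS1 to HIF1A was 4.15 ± 0.197, from 3.93 to 4.50 over the 6 libraries. It was 5.47 by units and 5.35 per coding length. HIF3A was listed at 0. ARNT, the beta subunit shared by all of them, was at 33.5 ppm, below EPAS1 at 75.4 and above HIF1A at 18.2 ppm. Among the prolyl hydroxylases, EGLN3, itself a HIF target, was highest per length at 54.3 ± 4.57 ppm, EGLN2 stood at 48.4 ± 4.38 with overlapping values and EGLN1, between 20.2 and 23.4 ppm, below both. The order of these 3 depends on the length used: by units without length correction, EGLN1 exceeded EGLN2 by a log2 of 0.58 and EGLN3 was below EGLN1 by 0.08. HIF1AN, the asparaginyl hydroxylase of HIF, was at 1390 ± 49.9 units.

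Of 37 HIF target genes, 33 (89.2%, against 59.7% of all entries) were detected and 4 stayed under 10 units. Among the 37, 19 reached 1000 units in every library, against 16.9% of all entries. The median level of the 37 targets was 61.7 ppm, against 5.94 over all entries with a length. The list was drawn up from known targets and holds many genes that most cells express. SLC2A1, the main glucose transporter of tumour cells, lay between 12643 and 13551 units, 49.2 ± 5.02 times as high per length as SLC2A3. VEGFA, the vascular growth factor, had 3920, 4194 and 4338 units as lowest, median and highest. TGFA, a ligand of EGFR, stood at 3304 ± 199 units, LOXL2, an enzyme that cross-links matrix, at 10232 ± 226, CCND1, cyclin D1, at 4959 ± 357 and PLIN2, a lipid droplet coat, at 4750 ± 596. PLIN2 and NDRG1 (6599 to 10114 units) were each lowest in controls 2 and 5.

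Both carbonic anhydrases that HIF induces in tumours were far apart. CA12 lay between 3446 and 3773 units with a median of 3613. CA9, widely used as a marker of clear cell carcinoma, reached at most 3.15 units, was listed at 0 in controls 1 and 5, and stood at about 3 reads in each of the others. With CA9 set to its floor of 3 reads per library, CA12 was at least 389-fold higher per length. The other targets under 10 units were NDUFA4L2, a mitochondrial protein raised in clear cell tumours (4.35 ± 2.88 units), EPO, erythropoietin (0.631 ± 0.924), and the chemokine receptor CXCR4 (0.446 ± 0.842).

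**Figure D3:**
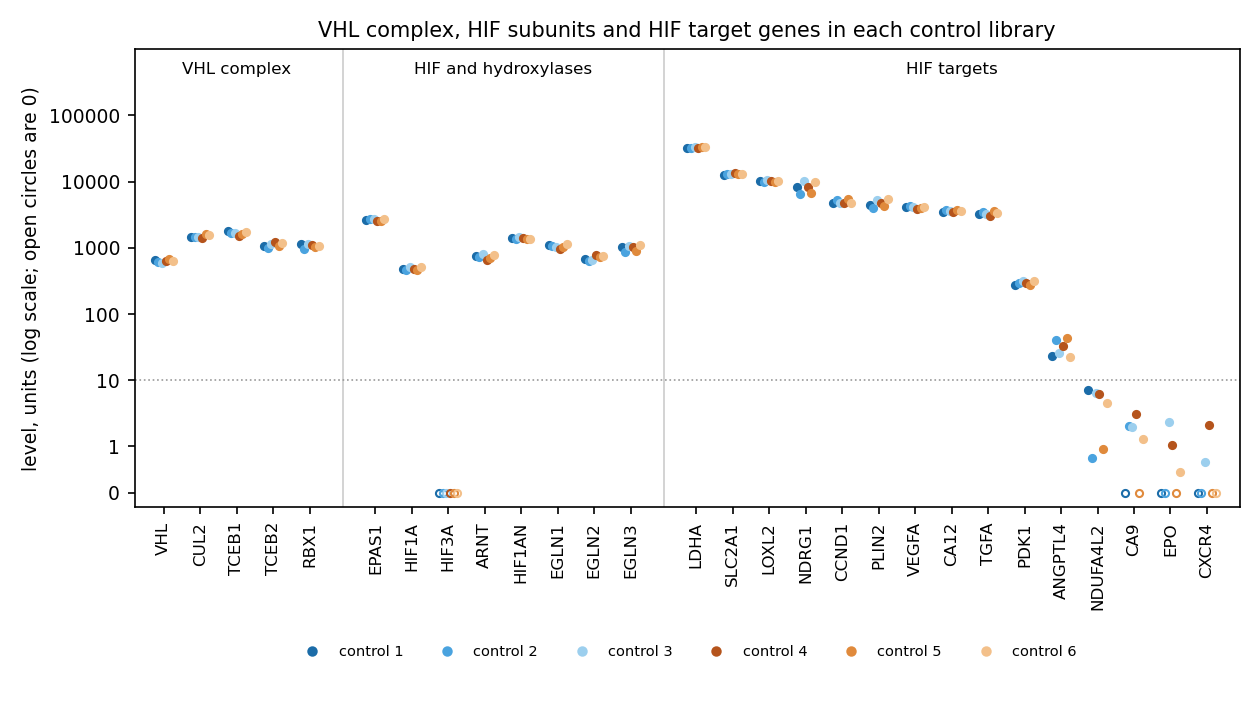
Level in units on a log scale (vertical axis) of genes of the VHL ligase, HIF subunits and hydroxylases, and HIF targets, with 1 point per control library and open circles for 0. EPAS1 at 2527 to 2759 units lies above HIF1A at 459 to 522, and the targets range from LDHA at 32804 units in the mean to CA9, EPO and CXCR4 near 0.

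The promoters of CA12, CA9 and SLC2A1 are shown because these targets had opposite levels. Each is the RefSeq GRCh38.p14 sequence from 250 bases before the start to 50 bases from it, and capitals mark the core of the HIF binding sequence, ACGTG or GCGTG, on either strand, so that CACGT and CACGC are the same letters read on the other strand.
CA12: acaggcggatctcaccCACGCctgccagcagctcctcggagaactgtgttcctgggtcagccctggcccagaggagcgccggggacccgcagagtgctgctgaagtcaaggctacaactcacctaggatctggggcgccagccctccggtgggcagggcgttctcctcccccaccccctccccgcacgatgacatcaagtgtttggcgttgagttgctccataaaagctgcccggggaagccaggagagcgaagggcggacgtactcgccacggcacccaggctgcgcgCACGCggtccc
CA9: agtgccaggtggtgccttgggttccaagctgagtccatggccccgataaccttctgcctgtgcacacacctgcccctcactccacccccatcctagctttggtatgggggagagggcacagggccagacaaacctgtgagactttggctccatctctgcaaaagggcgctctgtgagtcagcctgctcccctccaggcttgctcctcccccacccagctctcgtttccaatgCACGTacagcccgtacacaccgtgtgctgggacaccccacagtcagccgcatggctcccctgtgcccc
SLC2A1: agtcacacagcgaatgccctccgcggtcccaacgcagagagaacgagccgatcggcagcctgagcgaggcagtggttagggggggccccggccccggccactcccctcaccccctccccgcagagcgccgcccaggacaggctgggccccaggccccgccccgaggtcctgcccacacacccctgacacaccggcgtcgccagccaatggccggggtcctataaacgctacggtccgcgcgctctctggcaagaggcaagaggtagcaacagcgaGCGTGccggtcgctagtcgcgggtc
They lie at chr15:63381797-63382096 (minus strand), chr9:35673678-35673977 (plus) and chr1:42958819-42959118 (minus). CA12 held the core 2 times and the other promoters 1 time each. Both forms share the letters CGTG, and a CACGTG holds the first form on both strands. Over all matched entries 56.3% of the promoters had a core, over the HIF targets 24 of 29 (82.8%), and over the 4 targets that stayed under 10 units 4 of 4. The share differed with level, from 39.5% of entries listed at 0 to 67.2% of those at or above 1000 units. It was 63.0% for entries detected below the 1000-unit class. The detected HIF targets, at 20 of 25 (80.0%), are closer to these last shares than to 56.3%. A match of letters in this window does not show that HIF binds there.

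Several glycolytic genes were among the most abundant of the cells. Of 32 genes of glucose and lactate transport and glycolysis, 23 (71.9%) were detected and 18 reached 1000 units in every library, against 59.7% and 16.9% of all entries, and the list held 2.21% of all units. GAPDH was followed per length by ENO1 (4015 ± 153 ppm), PKM2, pyruvate kinase, now named PKM (3599 ± 80.3), ALDOA, aldolase (2336 ± 119), and LDHA, lactate dehydrogenase A (2284 ± 30.4). At 4 steps 1 form stood well above the other one compared: ALDOA was 603 ± 100.2 times ALDOC, ENO1 54.0 times ENO2 (49.9 to 56.9 over the libraries), HK1, a hexokinase, 9.26 ± 0.533 times HK2, and PFKP, a phosphofructokinase, 4.71 ± 0.357 times PFKL. LDHA and its relative LDHB differed less, by 1.98 ± 0.0415 times. The lactate exporter SLC16A3 stood 6.72 ± 0.535 times above SLC16A1. Several of these ratios depend on the length used. By units SLC16A3 was 3.34 times SLC16A1, HK1 6.46 times HK2, ENO1 38.7 times ENO2 and LDHA 2.95 times LDHB. Per coding length the same ratios were 3.60, 6.43, 38.7 and 2.73. The liver form PKLR was listed at 0.

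Of 7 gluconeogenesis genes 3 (42.9%, against 59.7% of all entries) were detected. FBP1, PCK1 and G6PC, the committed enzymes of gluconeogenesis, were listed at 0 in all 6 libraries, and FBP2 stood at 0.493 ± 0.768 units. FBP1 is known as a gene lost from clear cell carcinomas. PCK2, the mitochondrial form (575 ± 27.8 units), PC, pyruvate carboxylase (359 ± 22.0), and the broadly expressed G6PC3 (1329 ± 89.1) were detected. Of 8 genes of the pentose phosphate pathway 7 (87.5%, against 59.7% of all entries) were detected. TKT, transketolase, led them per length at 651 ppm.

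**Figure D4:**
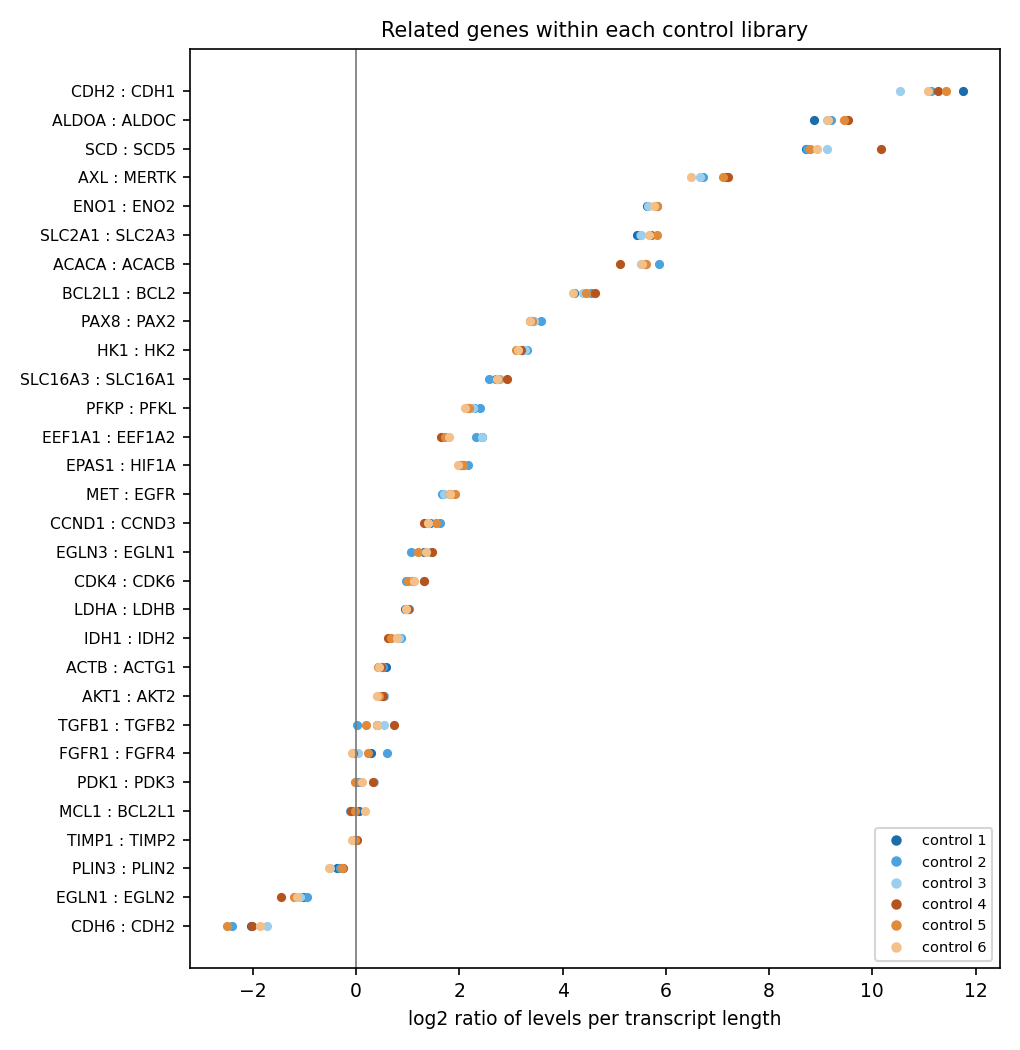
Log2 ratio of length-corrected levels of related genes (horizontal axis) for 30 pairs with a value in every library, with 1 point per control library. EPAS1 to HIF1A lies near 2, CDH2 to CDH1 lies near 11, and MCL1 to BCL2L1 and TIMP1 to TIMP2 lie near 0.

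Genes of pyruvate entry, the TCA cycle and glutamine use were detected in 31 of 34 cases (91.2%, against 59.7% of all entries). Of the 34, 21 reached 1000 units in every library, against 16.9% of all entries. MDH1, SDHA, MDH2 and CS, enzymes of the cycle or its shuttle, lay at 359, 259.7, 247 and 226 ppm. IDH1, the cytosolic isocitrate dehydrogenase, stood 1.70 ± 0.113 times above the mitochondrial IDH2. GLUL, glutamine synthetase, was listed at 0 in all 6 libraries. PDK1 and PDK3, kinases that switch off pyruvate dehydrogenase, overlapped per length at 14.5 ± 0.752 and 13.2 ± 1.17 ppm. This depends on the length used, since PDK1 was 1.78 times PDK3 by units and 1.62 times per coding length.

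Of 34 genes of fatty acids, sterols and lipid droplets, 23 (67.6%, against 59.7% of all entries) were detected. A level of 1000 units in every library was reached by 11, against 16.9% of all entries. SCD, the main fatty acid desaturase, lay between 14879 and 20104 units with a median of 17185, ACLY, ATP citrate lyase, at 9156 ± 126 and FASN, fatty acid synthase, at 6614 ± 829. SCD was 582 ± 285 times SCD5 per length, from 423 to 1155 over the libraries, and ACACA, acetyl-CoA carboxylase, 47.1 ± 7.53 times ACACB. The ratio of SCD to SCD5 rests on a low level of SCD5, 0.917 ppm. Its log2 of 9.08 fell to 8.86 without control 4, and the ratio was 1006 by units and 925 per coding length. HMGCS1, of sterol synthesis, was at 5766 ± 419 units. FABP4, an adipocyte gene, and PLIN5, a lipid droplet gene of oxidative tissues, were listed at 0, and the fatty acid receptor CD36 was at 0.423 ± 0.488 units. PLIN2, at 354 ± 39.2 ppm, exceeded PLIN3 at 272 ± 17.8.

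In amino acid metabolism 18 of 21 genes (85.7%, against 59.7% of all entries) were detected. SLC7A5, the large neutral amino acid transporter, lay between 19310 and 24047 units with a median of 21279, and its partner chain SLC3A2 at 6596 ± 559.5. PSAT1 (3318 ± 164), PSPH (902 ± 31.7), SHMT2 (3132 ± 119) and MTHFD2 (2802 ± 252), enzymes of serine and folate metabolism, were all detected. PHGDH, the first enzyme of that serine pathway, was listed at 0 in all 6 libraries. Both PHGDH and GLUL are widely expressed genes, so these zeros are given only as listed and their origin was not tested. NNMT, a methyltransferase of nicotinamide known to be high in clear cell carcinoma, was at 3202 ± 266 units. ASS1, a urea cycle enzyme known to be low in it, was at 51.4 ± 8.57 units, and ARG1 and OTC were listed at 0.

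Of 23 tumour suppressors 21 (91.3%, against 59.7% of all entries) were detected. The chromatin genes that are mutated in renal carcinoma besides VHL stood at 1111 ± 76.1 units for PBRM1, 1748 ± 34.6 for BAP1 and 1561 ± 88.6 for SETD2. The fragile-site gene FHIT was the lowest detected member per length at 2.24 ppm. CDKN2A and CDKN2B, inhibitors of CDK4 and CDK6, were listed at 0 in all 6 libraries. In RefSeq's order of genes on chromosome 9, the antisense entries C9orf53 and CDKN2BAS beside them were also at 0. The nearest entries with signal on the flanks were MTAP (1005 ± 49.9 units) and DMRTA1 (243 ± 26.7).

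Of 35 receptor tyrosine kinases, 15 (42.9%, below the 59.7% of all entries) were detected. Of the 35, 7 reached 1000 units in every library, against 16.9% of all entries. MET led per length at 284 ± 18.5 ppm and AXL, a receptor for GAS6, was at 272 ± 28.8, with overlapping ranges. MET was 3.41 ± 0.238 times EGFR, and AXL was 121 ± 24.6 times its relative MERTK. FGFR1 and FGFR4 overlapped at 55.6 ± 4.58 and 49.7 ± 6.46 ppm, but FGFR1 was 2.28 times FGFR4 by units and 2.14 times per coding length. EPHA2, an ephrin receptor, was at 119.8 ppm. RET, FLT3 and PDGFRA were listed at 0. INSR, the insulin receptor, had signal in control 5 only, at 1.82 units, a value given only as listed, since this gene too is widely expressed, and IGF1R stood at 995 ± 48.2 units.

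Of 45 growth factors and secreted signals, 30 (66.7%, near the 59.7% of all entries) were detected, and 19 with a limit of 100 units. The EGFR ligands TGFA and EREG stood at 494 and 62.8 ppm, GAS6, the ligand of AXL, at 76.1 ppm and FGF2 at 58.5 ppm. By units TGFA and EREG lay closer, at means of 3304 and 1968, so their distance depends on the length used. HGF, the ligand of MET, was listed at 0 in all 6 libraries. Inflammatory cytokines were low, with IL6 at 18.0 ± 3.66, IL8 (now CXCL8) at 29.5 ± 5.86 and TNF at 1.94 ± 1.02 units. DKK1, a WNT inhibitor, and IFNB1 were listed at 0.

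Downstream, 32 of 33 genes of PI3K, mTOR and RAS signalling (97.0%, against 59.7% of all entries) were detected. PIK3CG, a leukocyte form, was listed at 0. FKBP1A, the protein through which rapamycin derivatives act, was at 3270 ± 117 units, and MTOR at 1843, 1891 and 1997 units as lowest, median and highest. NRAS was at 120.4 ± 7.96 ppm. AKT1 and AKT2, kinases downstream of PI3K, stood at 97.5 ± 4.45 and 69.3 ± 2.16 ppm and did not overlap. BRAF was the lowest detected member per length at 4.08 ppm.

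MKI67, a protein of cycling cells, lay between 10575 and 13247 units and TOP2A, a topoisomerase of replication and mitosis, between 10446 and 12219. In all, 25 of 29 cell cycle and MYC family genes (86.2%, against 59.7% of all entries) were detected. CCND1 stood at 169.6 ± 14.0 ppm, 2.74 ± 0.222 times CCND3, while CCND2 had a mean of 0.343 units. By units CCND1 was 5.65 times CCND3, and per coding length 5.60 times. CDK4 was 2.21 ± 0.227 times CDK6 per length, but CDK6 was higher by units and per coding length. MYC was at 934 ± 73.6 units and at least 343-fold above MYCN, which was listed at 0. In the BCL2 family the survival genes MCL1 and BCL2L1 overlapped at 135 ± 4.63 and 136 ± 6.58 ppm, and BCL2L1 was 21.3 ± 2.51 times BCL2. The ratio of BCL2L1 to BCL2 was 10.3 by units and 10.6 per coding length.

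Class I antigen presentation was present and class II was not. B2M (20913 ± 1544 units), HLA-B (6064 ± 258) and HLA-C (4732 ± 325) were high, though reads of the HLA genes can be shared among them. HLA-DRA and CIITA, of class II, had means of 0.0757 and 0.912 units. CD70, a ligand of the tumour necrosis factor family known to be raised in clear cell carcinoma, lay between 6484 and 7953 units with a median of 7055. CD274, encoding PD-L1, was at 34.2 ± 5.51 units, and the costimulatory CD86 was listed at 0.

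Of 39 HOX genes, which set position along the body axis in the embryo, 31 (79.5%, against 59.7% of all entries) were detected. HOXA9 (137 ppm), HOXA10 (66.6), HOXA3 (57.2) and HOXB7 (51.9) were the highest per length, and HOXB1 and HOXC12 were listed at 0. HOXD12, HOXD13 and HOXC13, at the posterior ends of their clusters, had means under 0.3 units. Of 25 germline and embryonic genes, 6 (24.0%, against 59.7% of all entries) were detected and 8 (32.0%, against 19.5%) were at 0. With a limit of 1 unit 12 counted as detected. IGF2BP3 and IGF2BP2, RNA-binding proteins of the embryo, were at 1836 ± 133 and 1356 ± 97.7 units and PRAME, a tumour antigen, at 927 ± 62.6. TERT, the catalytic subunit of telomerase, was at 46.9 ± 11.7 units.

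Several gene families of specialised tissues were silent in most members. These families were picked by name after their values had been seen. Listed at 0 in all 6 libraries were 341 of 380 olfactory receptors (89.7%, against 19.5% of all entries) and 76 of 82 keratin-associated proteins. So were 31 of 33 beta-defensins, 17 of 18 late cornified envelope genes and 12 of 13 alpha interferons. Small nucleolar RNAs, which are not polyadenylated as mature RNA, were at 0 in 251 of 325 cases. At the other end, all 75 mitochondrial ribosomal proteins, all 37 complex I subunits, all 12 RNA polymerase II subunits and all 9 subunits of splicing factor SF3 in the table were detected. Over all entries 59.7% were detected and 16.9% reached 1000 units in every library. The zinc finger genes named ZNF were detected in 435 of 518 cases but reached 1000 units in only 10.

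Promoters differed between the classes of level. CpG-rich promoters, with a ratio of observed to expected CpG above 0.6 and over 50% G and C in the 300 bases, made up 26.0% of the matched entries listed at 0, 36.1% of those with signal under 10 units, 79.8% of the entries detected below the 1000-unit class and 87.3% of those at or above 1000 units. Over all 15097 matched entries the share was 64.4%. These shares describe the annotated starts and carry no test.

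The spread between libraries was small for most genes. The median coefficient of variation (CV) over the 12236 detected entries was 7.01%, against 3.54% from counting error alone, and 71.2% of the entries had a CV under 10%. It fell with level, from 16.7% at 10 to 100 units through 7.16% and 5.01% to 4.48% above 10000 units. GPR107 (4063 to 4136 units) and B4GALT1 (4456 to 4554) varied least among entries with a mean of at least 1000. Each pair of libraries differed by 2.54 to 6.21 times the counting variance in the median entry, so no pair looked like 1 library deposited 2 times.

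Part of that spread followed the library sets. The first principal component, with 47.6% of the variance, separated controls 1 to 3 from controls 4 to 6. Of the detected entries, 1950 (15.9%) did not overlap between the sets, 806 (6.59%) higher in the first and 1144 (9.35%) higher in the second. With only 3 libraries in each set, many entries separate through their order alone, so this count overstates the entries that depend on the set. Most of these differences were small: among the 3740 entries with a mean of at least 1000 units the median absolute difference was a log2 of 0.04, 83.2% lay under 0.1 and 10 reached 1.

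The 10 largest differences included several genes with near copies in the genome. PGAM4, a near copy of PGAM1, stood at 3907, 3502 and 4162 units in the first set and at 324, 275 and 281 in the second, while PGAM1 overlapped between the sets. HSPA1A, a stress-induced chaperone, was at 840, 947 and 856 units and then at 4181, 4311 and 3979, and its twin HSPA1B moved the opposite way, from 3713, 3794 and 3967 to 1491, 1476 and 1483. Summed, HSPA1A and HSPA1B lay between 4553 and 5787 units, a log2 difference of 0.26 between sets in place of 2.24 and -1.37, and the sums still did not overlap between the sets (4553 to 4823 units against 5462 to 5787). The sum of PGAM1 and PGAM4 differed by -0.22 (23994 to 27429 against 21296 to 23180) and that of HNRNPA1 and HNRNPA1L2 by -0.45 (11366 to 12321 against 8380 to 9001). RPL7, RPL39 and RPL17 of the ribosome were lower in the second set, with log2 differences of -2.72, -1.54 and -1.06. HNRNPA1L2 (-1.19) and VOPP1 (-1.05) were also among the 10. EEF1A1 shared the direction, with 66394, 59349 and 66907 units against 44928, 45106 and 46031. Levels of such genes are uncertain, and whether the difference arose in the cells or in the handling of shared reads was not tested.

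Controls 2 and 5 shared a second pattern. The second component (19.6%) set them apart from the other 4, with loadings of 0.56 and 0.57. In entries at or above 1000 units, their deviations from the means of their own sets correlated at 0.76 across 3470 entries, against 0.59 at or above 100 units and 0.42 over all detected entries. At or above 1000 units the other 8 pairings of a first-set and a second-set library lay between -0.64 and 0.38. They are no independent contrast: deviations within a set cancel, so a high value in a pairing lowers others that share its libraries. The pattern is a description across genes, which share the libraries and are not independent. EREG, a ligand of EGFR, was highest in these libraries (2593 and 2546 units, against 1539 to 1860 in the others), as were SEMA3C, a secreted guidance protein (1437 and 1347 against 823 to 1017), and FOSL1, a component of the transcription factor AP-1 (1715 and 1667 against 1096 to 1311). ANXA4, an annexin (3625 and 3479 against 4092 to 5547), NDRG1, CDH6, ELF3 and CD24 were lowest in them. These genes were chosen after their values had been seen, from those with the largest spread within the sets or from the lists. Without controls 2 and 5 the median CV was 6.52%.

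**Figure D5:**
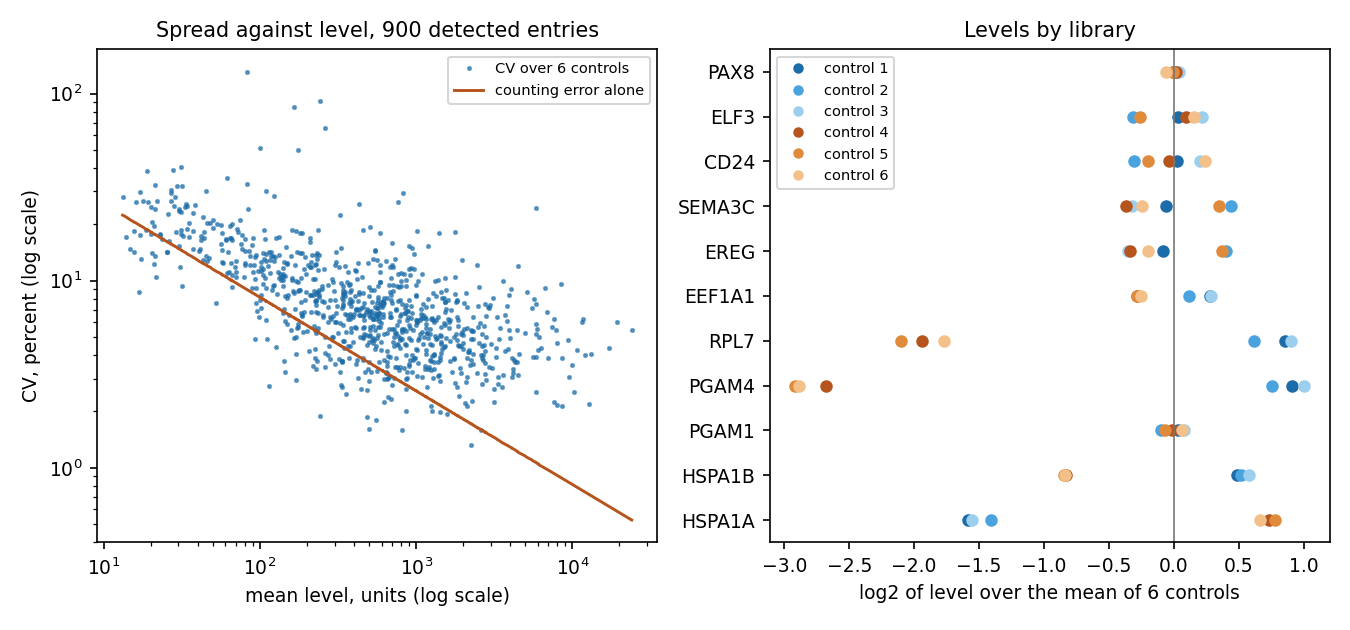
Left, CV over the 6 controls in percent against mean level in units, both on log scales, for 900 detected entries, with a line for counting error alone. Right, log2 of the level over the mean of the 6 controls for 11 genes, 1 point per library: HSPA1A, HSPA1B, PGAM4, RPL7 and EEF1A1 separate controls 1 to 3 from 4 to 6, EREG and SEMA3C are highest and CD24 and ELF3 lowest in controls 2 and 5, and PAX8 hardly varies.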

How the data were processed

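The authors deposited a table of a signal per gene, with 11 columns, 1 per sample, and 0 columns were left unmapped. The submitters' processing notes name hg19, Picard 1.64, SAMtools and RSEM, without roles. Not given in the sources used here are the aligner, the annotation and the use of strand. Each deposited column was scaled so that the upper quartile (percentile 75) of its values above 0 lay at 999.57 to 1001.05. From the values, low signals lay on multiples of a step, and a value was called whole within 0.1 reads, for values up to 200 reads. Because a part was fractional, no count model was used. With 1 group, no test was made: values are means ± SD and ranges over 6 libraries, which may be technical replicates.

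Names matched a current symbol of RefSeq GRCh38.p14 for 17266 entries, an older one for 2509 and none for 725, and 26 entries named by whole numbers were given no gene. Levels were divided by transcript length, the median over GENCODE 29 basic transcripts with at least 90% of the longest coding sequence (19565 entries), and scaled to 1000000 per library. The coding length from a protein table, as first planned, was not used here as the main scale, and coding length from GENCODE served as an alternative. Deposited values follow hg19, and the later build was used for names, lengths and promoters alone. Scripts used Python 3.11.15, NumPy 2.4.6 and pandas 2.3.3 and were tested on simulated data.

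The 26 gene lists and the related pairs were chosen with earlier results of these data known. Named by rule were the 20 highest entries by units and by ppm, the 4 highest, 3 lowest and silent members of each list, both genes of each pair, and the entries with the largest or smallest spread or set difference. Some of the genes that this rule names are not reported here. Other genes named were chosen after their values were seen. A SD of log2 values used a pseudocount of 1.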

Additional observations from a re-analysis of the deposited data

Results flagged for a closer look

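Of 186 genes named in the text with a level of at least 10 units in every library, 4 had 1 library far from the other 5, by a gap to the nearest value beyond Dixon's 95% limit for 6 values. About 1 in 20 genes is marked so by chance alone. FKBP1A stood lowest in control 4 at 3049 units. ACTA2 was highest in control 3 at 103 units. HK2 was highest in control 5 at 487 units, and B4GALT1 was highest in control 6 at 4554 units around a mean of 4486.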

How the results depend on the processing

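The number of detected entries was 12236 and lay between 10011 (limit of 100 units) and 13534 (limit of 1 unit), with 12404 at a limit of 10 reads. Entries at 0 were 3997, and 4093 to 4182 without any 1 library, 4580 in controls 1 to 3 and 4562 in controls 4 to 6. The median CV of 7.01% lay between 4.87% at 1000 units and 9.22% with no filter, and was 6.79% with columns scaled to an equal sum. The 100 highest entries held 16.0% of the units, 16.0% to 16.1% without any 1 library, 21.2% per coding kilobase and 24.1% per transcript kilobase. Of 37 related pairs, 33 did not overlap, 35 without length correction and 34 per coding length. In 23 of 26 gene lists the number of detected members stayed within 1.5 times under a limit of 1 unit, and in 23 under a limit of 100 units. The lists outside this range were those of the proximal tubule (7 to 12 at 1 unit), other nephron segments (2 to 6 at 1 unit and 1 at 100), germline genes (6 to 12 at 1 unit), other cell types (5 to 1 at 100 units) and growth factors (30 to 19 at 100 units). The size of many ratios moved with the length used, so the SD of a ratio covers the libraries and not the choice of length. The order of 5 pairs turned with the length used, since transcript and coding lengths differ between the genes. Without length correction the log2 ratios were -0.08 for EGLN3 to EGLN1, 0.58 for EGLN1 to EGLN2, -0.52 for CDK4 to CDK6, 0.59 for MCL1 to BCL2L1 and -0.47 for TGFB1 to TGFB2. Per coding length they were 0.51 for EGLN1 to EGLN2, -0.41 for CDK4 to CDK6, 0.01 for MCL1 to BCL2L1 and -0.29 for TGFB1 to TGFB2. The ratio of MCL1 to BCL2L1, -0.01 over all libraries, ran from -0.04 to 0.02 with any 1 library left out, and was 0.00 to 0.02 without control 2, 3 or 4. No paired analysis was possible because the libraries form 1 group and no test was made. Alternatives by library set for the counts, and without controls 2 and 5, were chosen after seeing the data. Low depth limits values under about 3 reads, and near-identical genes limit the levels named as uncertain.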
